A study of Schmidtea mediterranea with 10 samples.

Results

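The genes described here are 117 transcripts that were moderately more abundant in agat-positive than in agat-negative planarian cells and that were not strongly unequal between cells with and without piwi-1. They were chosen from 36035 gene IDs by CPM (counts scaled to a library's assigned total). A is the log2 ratio of the mean CPM + 1 of the 4 agat-positive to that of the 4 agat-negative libraries. P is the same ratio for the 1 piwi-1-positive and the 1 piwi-1-negative library. A member had a mean of 10 CPM or more over the 8 agat libraries and a lowest agat-positive value above its highest agat-negative value. Its A lay from 0.75 to under 3, and its P above -1 and under 1.5. These values chose the members, so A, P and the gap between the gates are given as a description and are no evidence for the list.

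Every library came from whole, uninjured Schmidtea mediterranea, a flatworm that regenerates missing parts, of the clonal asexual strain CIW-4 (C4), held at 20 °C and unfed for 2 weeks or more before use. The worms were wild type and carried no allele or knockdown, and no age is stated. About 160 worms were split between a control without probes, an agat label and a piwi-1 label, so cells of many worms were pooled. Cells were dissociated and fixed in ACME, an acetic acid and methanol mixture, and then stained by hybridization chain reaction, so that a cell holding the target transcript fluoresces. The agat-positive and agat-negative gates (4 libraries each, labelled as biological replicates) were sorted on a pool of probes against the 3 agat transcripts (agat-1, -2 and -3). A piwi-1 probe defined the other pair of gates, piwi-1-positive and piwi-1-negative, with 1 library each. Each gate is therefore defined by fluorescence and not by a purified lineage, and each negative gate holds all remaining cell types of the worm.

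Planarians replace their cells from neoblasts, dividing stem cells that express piwi-1, a gene of the PIWI family. Cells bound for the epidermis leave the cell cycle and pass through early and late progenitor states before they join the surface. Transcripts of the agat genes, relatives of the enzyme that opens creatine synthesis (L-arginine:glycine amidinotransferase), mark the late progenitors. The deposited files pair no gene ID with a name, and no annotation of these IDs was at hand. The 4 probe targets are therefore the genes with a stated role, and no role or sequence is given for a member.

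Libraries held 35081410 to 51821158 assigned counts. The agat transcripts followed the gate. agat-1 (SMED30018353) had 1627, 305, 234 and 1564 CPM in agat-positive replicates 1 to 4. In the agat-negative replicates it had 14.7, 33.6, 94.6 and 28.4 CPM. Its groups did not overlap, yet agat-positive replicates 1 and 4 stood far above replicates 2 and 3. piwi-1 (SMED30007406), the neoblast marker, had 179.8, 382, 393 and 309 CPM in agat-positive replicates 1 to 4. In the agat-negative replicates it had 573, 472, 545 and 398 CPM. Replicate 4 of each agat gate has a column name built differently from those of replicates 1 to 3, and the labels do not state whether it came from another sort. agat-negative replicate 4 stood apart from the other libraries of its gate, with 34.5% of its reads unmapped and 28497 genes with a count, where the other 9 libraries had 19.7% to 29.7% and 29691 to 31402. In bulk samples such as these, fewer cells of a type and less RNA per cell cannot be told apart.

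The rule found members in a narrow part of the data. Of 8374 genes with a mean of 10 CPM or more, 364 had agat-positive values all above their agat-negative values (4.35%), and 772 had them all below. Among the 364 genes, A was under 0.75 for 151 and 3 or more for 82. A further 11 genes had an A in the window but a P of -1 or less, and 3 genes had a P of 1.5 or more. All 117 members passed edgeR's own filter on low counts as well.

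At most bounds of the rule, genes just inside and just outside had close values. At the lower bound of A, the nearest gene inside had 0.752 and the nearest outside 0.744. At the upper bound these were 2.98 and 3.04. For P they were -0.997 and -1.001 at the lower bound, and 1.28 and 1.51 at the upper bound, where they lay farther apart. The least abundant member had a mean of 10.03 CPM and the nearest gene left out 9.92 CPM. The smallest ratio of the lowest positive to the highest negative value was 1.003, and the nearest ratio outside was 0.996. This separation was thin for many members. The ratio had a median of 1.15, reached 1.1 in 75 members and 1.5 in 23.

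**Figure D1:**
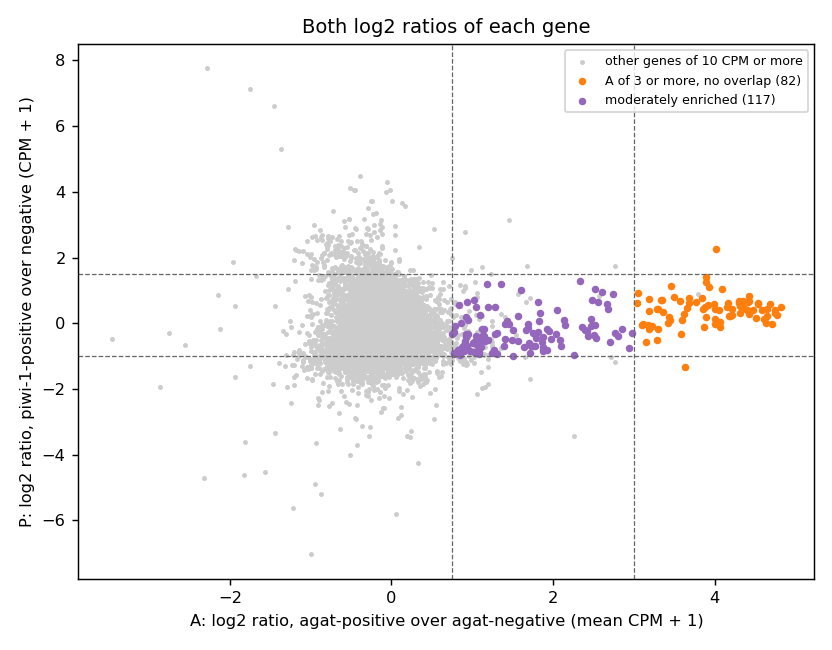
Each point is a gene with a mean of 10 CPM or more, with A (log2 ratio between the agat gates) on the x axis and P (log2 ratio between the piwi-1 gates) on the y axis, and dashed lines at the bounds of the rule. The 117 members lie between the lines, the 82 non-overlapping genes with an A of 3 or more lie to their right, and genes outside the list lie close to the bounds of A and to the lower bound of P.

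The members ran from low to high abundance. Their mean over the 8 agat libraries had a median of 42.0 CPM and went from 10.03 to 1962 CPM, with 27 members at 10 to 20 CPM, 63 at 20 to 100, 25 at 100 to 1000 and 2 at 1000 or more. All genes of 10 CPM or more had a median of 29.2 CPM. In agat-positive cells the members' mean level had a median of 60.0 CPM and a highest value of 3340 CPM, against 21.7 and 969 CPM in agat-negative cells. No member had a 0 in any of the 10 libraries, and the lowest count of a member in an agat-negative library was 12, so reads from these genes were present in both gates.

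The ratios used for the choice had a median A of 1.503 over the members, a 2.83-fold difference in mean CPM + 1, with quartiles of 1.07 and 2.04. The median A over all genes of 10 CPM or more was -0.11. A was 1 or more, a doubling, in 95 members, and 2 or more in 30. Split by A, 58 members lay from 0.75 to 1.5, 35 from 1.5 to 2.25 and 24 from 2.25 to 3. Level and ratio ran in opposite directions across these bands in agat-negative cells, with a median negative level of 31.2, 14.5 and 9.33 CPM. In agat-positive cells the bands were closer, at 66.4, 53.3 and 58.6 CPM. The bands were cut on A, and A contains both levels, so this too describes the list.

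Together the members held 3.01%, 1.15%, 1.08% and 2.72% of assigned counts in agat-positive replicates 1 to 4. In agat-negative replicates 1 to 4 they held 0.594%, 0.740%, 0.788% and 0.461%. The means were 1.99 ± 1.02% and 0.646 ± 0.148% (SD, n = 4), 3.08-fold apart, and agat-positive replicates 1 and 4 carried most of the difference. Without agat-negative replicate 4, the rule found 129 genes, 106 of them among the 117, which held 2.05% of counts in the positive gate and 0.680% in the negative one. The 82 genes with an A of 3 or more held 7.81%, 1.53%, 1.27% and 7.14% in the same agat-positive libraries, and 0.0732% to 0.441% in agat-negative ones. The members held the larger share of the 2 lists in every agat-negative library, and the 82 genes the larger share in every agat-positive one. Both lists were cut on A, which comes from these same libraries, so the shares describe the lists.

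**Figure D2:**
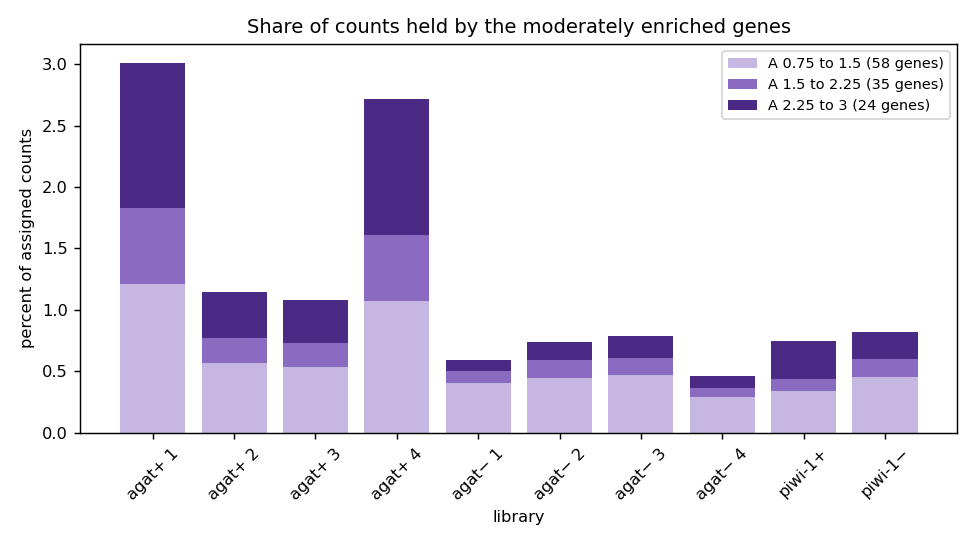
Bars give the percent of assigned counts (y axis, from 0) that the members held in each library (x axis), stacked by band of A. agat-positive replicates 1 and 4 reach 3.01% and 2.72%, replicates 2 and 3 stay at 1.15% and 1.08%, and every other library is below 0.83%.

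A few genes made up much of this share. The 5 most abundant members held 46.1% of the members' counts in agat-positive replicate 1, 36.7% in replicate 3 and 31.1% in agat-negative replicate 4. The member with the highest mean, SMED30002992, had 5699, 1446, 1304 and 4909 CPM in agat-positive replicates 1 to 4. In agat-negative replicates 1 to 4 it had 408, 769, 728 and 433 CPM, so its groups did not overlap and both extreme positive libraries were those with the most agat-1. Its means were 3340 ± 2292 and 584 ± 190.1 CPM (SD, n = 4), 5.71-fold apart, and in TPM, a length-scaled level, 7343 ± 4701 and 1481 ± 486. It alone held 18.9% of the members' counts in agat-positive replicate 1 and 6.87% in agat-negative replicate 1. Without it the members held 1.65% of counts in the positive gate and 0.587% in the negative one.

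SMED30026307, with the widest separation of the gates by the ratio of its lowest positive to its highest negative CPM + 1, was a gene of low abundance. It had 32.7, 9.14, 9.98 and 33.9 CPM in agat-positive replicates 1 to 4. In the agat-negative replicates it had 2.83, 3.21, 3.80 and 1.76 CPM. Its means of 21.4 ± 13.7 and 2.90 ± 0.86 CPM (SD, n = 4) were 7.39-fold apart. Replicates 1 and 4 were again the high positive libraries, and the highest negative value was 2.15 times the lowest.

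The comparison of agat gates across all genes asks which transcripts set agat-labelled cells apart. In edgeR's quasi-likelihood test, 0 of the 117 members passed at a Benjamini-Hochberg adjusted p under 0.05, where 2 of 22954 genes did on the higher side (0.00871%). At an unadjusted edgeR p under 0.05 all 117 members were higher, against 5.26% of all genes. The members' edgeR adjusted p ran from 0.144 to 0.297. DESeq2 called 109 members higher at its adjusted p under 0.05, and 1.55% of the 25988 genes to which it gave one. The rule chose the members on these libraries, so nothing is read from these counts. Without agat-positive replicate 3, edgeR called 39 members and 98 genes higher, and without any other single library it called 0 members.

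Within the agat-positive gate the members moved with the agat transcripts from library to library. Against the mean of the negative libraries, the members' median log2 ratio was 2.13, 0.70, 0.56 and 1.93 in agat-positive replicates 1 to 4. The corresponding values of agat-1 were 5.21, 2.80, 2.42 and 5.16. Both replicate 1 and replicate 4 were above replicates 2 and 3 in 115 of the 117 members, and in 25.5% of all genes of 10 CPM or more. This count was again 115 in TMM-scaled CPM, where the scaling factors come from the bulk of genes, and in TPM, with 37.2% and 13.1% of all genes.

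The finer order of libraries was shared by most members. Replicate 1 was the highest positive library for 96 members (82.1%) and replicate 4 for 20 (17.1%), against 20.5% and 21.8% of all genes. Replicate 3 was the lowest for 97 members (82.9%) and replicate 2 for 18 (15.4%), against 20.5% and 13.3% of all genes. The complete order of agat-1 over the 4 positive libraries, replicate 1, then 4, 2 and 3, occurred in 82 members (70.1%) and in 8.98% of all genes of 10 CPM or more. It occurred in 71 of the 82 genes with an A of 3 or more. piwi-1 ran the other way, lowest in replicate 1 and highest in replicate 3, and its part in these values was not tested. The rule fixes that each positive library exceeds the negative ones but states no order among them. Its lower bound on A can still favour genes that are high in the more variable libraries. Over all genes, log2 ratios to the negative mean had SDs of 0.85, 0.40, 0.37 and 0.76 in positive replicates 1 to 4. The same libraries gave A, so the order is not separate evidence.

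**Figure D3:**
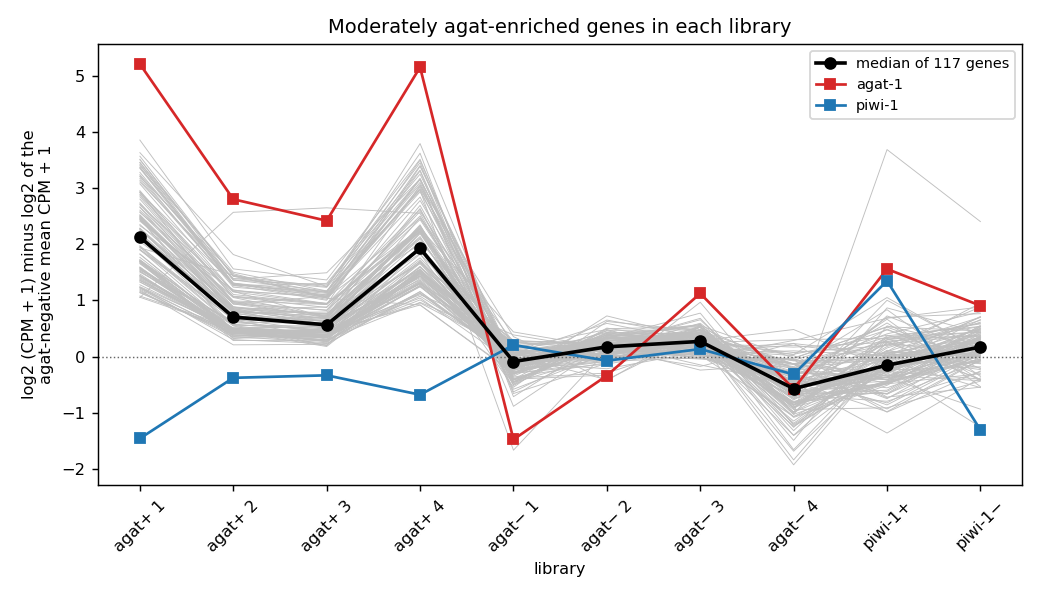
Each grey line is a member, with its log2 (CPM + 1) minus that of its agat-negative mean on the y axis in each of 10 libraries on the x axis; the black line is the median of the 117 members, red is agat-1 and blue is piwi-1. The members' median follows agat-1 in the positive libraries at a smaller size, with 2.13, 0.70, 0.56 and 1.93 in replicates 1 to 4.

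The members differed in how far they moved between positive libraries. The ratio of the highest to the lowest positive library, in CPM + 1, had a median of 3.03 over the members and ran from 1.52 to 6.27. It was 6.93 for agat-1, 7.23 for agat-2 and 6.05 for agat-3, 6.10 at the median of the 82 genes with an A of 3 or more, and 1.34 at the median of all genes. By band of A the medians were 2.24, 3.34 and 4.65. Range and A had a Spearman correlation of 0.94 across the 117 genes, given with no test because both contain the highest positive library.

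For most members, differences among the agat-negative libraries were smaller. Their ratio of the highest to the lowest library, in CPM + 1, had a median of 1.98 there, against 3.03 in the positive gate. Over all genes of 10 CPM or more the medians ran the other way, at 1.64 and 1.34. In the negative gate the ratio was 6.08 for agat-1, 6.61 for agat-2 and 13.5 for agat-3. Against the mean of the 4 negative libraries, the members' median log2 ratio was -0.09, 0.17, 0.27 and -0.57 in agat-negative replicates 1 to 4. The values of agat-1 were -1.48, -0.34, 1.12 and -0.58. Replicate 3, which had the most agat-1 of the negative libraries, was the highest one for 69 members (59.0%) and for 26.2% of all genes. Replicate 4 was the lowest for 91 members, but it was also the lowest for 57.8% of all genes. In TMM-scaled CPM these counts were 63 members and 22.3% of all genes for replicate 3 as the highest, and 69 members and 38.6% of all genes for replicate 4 as the lowest. The order of agat-1 over the negative libraries, replicate 3, then 2, 4 and 1, occurred in 8 members (6.84%) and 2.34% of all genes. Among the 82 genes with an A of 3 or more it occurred in 47. The library with the least agat-1, replicate 1, was the lowest for 23 members (19.7%) and for 13.4% of all genes. In TMM-scaled CPM these shares were 32.5% and 20.9%. The agat-negative values also entered the rule, so these counts and ranges are not separate evidence.

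Of the members, 2 departed from the common order of positive libraries, and they are named after their values were seen. SMED30034279 had 309, 887, 938 and 876 CPM in agat-positive replicates 1 to 4. In the agat-negative replicates it had 112, 118, 291 and 72.9 CPM. Its lowest positive library was thus the one with the most agat-1 and the least piwi-1, and its 309 CPM there was close to the 291 CPM of the highest negative library. It had the highest P of the list, with 1927 CPM in the piwi-1-positive and 791 CPM in the piwi-1-negative library, a ratio of 2.44 (95% exact binomial interval 2.40 to 2.47). Its level in TPM was 59.98 ± 26.1 in agat-positive and 12.8 ± 8.45 in agat-negative cells (SD, n = 4).

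SMED30017100 had 33.2, 23.4, 17.4 and 15.9 CPM in agat-positive replicates 1 to 4. In agat-negative replicates 1 to 4 it had 6.25, 7.42, 9.69 and 8.38 CPM, which left the groups without overlap. Its lowest positive library was replicate 4, where agat-1 was high. It had 9.24 CPM in the piwi-1-positive and 15.5 CPM in the piwi-1-negative library, a ratio of 0.597 (95% exact binomial interval 0.519 to 0.686). Intervals cover counting error only.

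**Figure D4:**
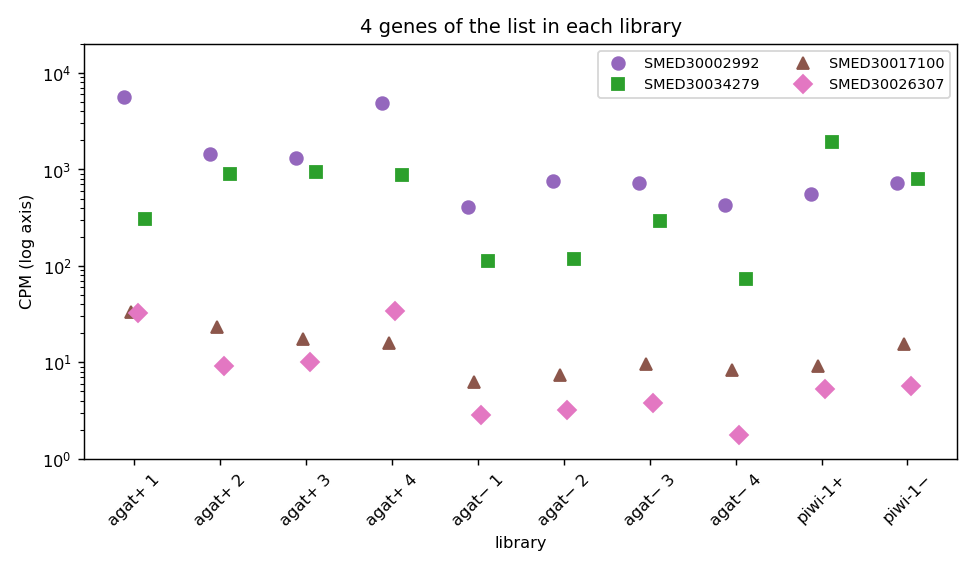
Points give the CPM (log y axis) of 4 members in each of 10 libraries (x axis). SMED30002992 and SMED30026307 are high in agat-positive replicates 1 and 4, while SMED30034279 is lowest there in replicate 1, at 309 CPM, and highest in the piwi-1-positive library, at 1927 CPM.

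To see how the choice carries over to libraries that took no part in it, the rule was applied 4 times, each time without the positive and the negative library of one number. The log2 ratio of the left-out pair was then read. Left out as number 1, the pair gave a median of 2.71 over the 121 genes chosen without it, and all 121 were higher in the positive library, against 30.9% of all genes of 10 CPM or more. Number 4 gave 3.10 over 115 genes, with 114 higher, against 57.9% of all genes.

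The other pairs showed much smaller differences. Number 2 gave a median of 0.30 over 179 genes, with 150 higher (35.6% of all genes were). Number 3 gave 0.18 over 189 genes, again with 150 higher (29.1% of all genes were). A log2 ratio of 0.75 or more was reached by 121, 32, 12 and 113 of the genes chosen without numbers 1 to 4. Of the genes chosen, 96, 110, 107 and 90 were among the 117. The P window was the same in each choice, no test was made, and the 4 choices share libraries. In TMM-scaled CPM the medians were 2.65, 0.32, 0.22 and 2.22 for numbers 1 to 4, so numbers 1 and 4 changed places. Under this scaling, 120 of 121, 162 of 198, 174 of 206 and 137 of 139 chosen genes were higher in the positive library. Among all genes, 4233 of 8363, 5017 of 8358, 4357 of 8362 and 4245 of 8287 were, a larger background than in CPM for numbers 1 to 3. agat-negative replicate 4, which stood apart from its gate, is the negative library of number 4, and its part in that value was not tested. Most genes chosen kept their direction in each left-out pair.

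**Figure D5:**
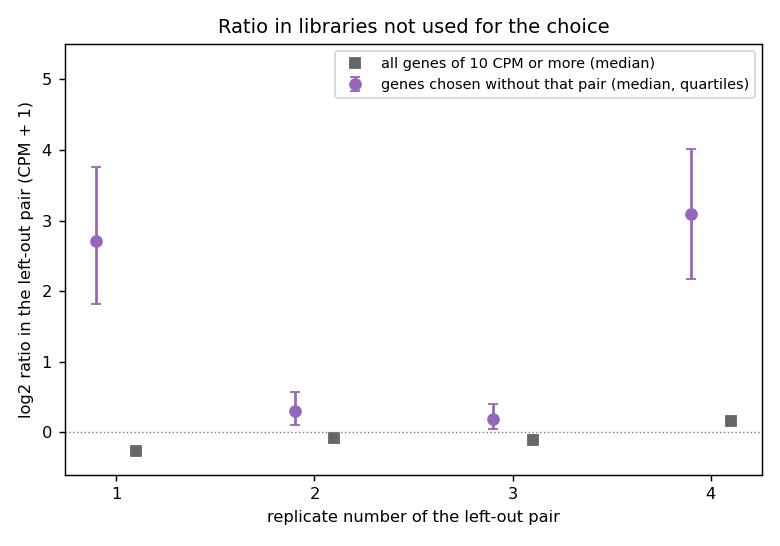
For each replicate number on the x axis, the purple point is the median log2 ratio (y axis, CPM + 1) of the left-out pair over the genes chosen without it, with bars to the quartiles, and the grey square is the median of all genes of 10 CPM or more. Numbers 1 and 4 stand at 2.71 and 3.10, numbers 2 and 3 at 0.30 and 0.18, all above the grey squares.

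The piwi-1 gates set cells marked as neoblasts against all others, from 1 library a gate and so without replicates. piwi-1 itself had 1267 CPM in the piwi-1-positive and 199.9 CPM in the piwi-1-negative library, a ratio of 6.34. Within the window that the rule allowed, the members leaned to the piwi-1-negative side. P was part of the rule, so the following describes the list. P was below 0 in 89 members (76.1%), against 56.4% of all genes of 10 CPM or more and 53.4% of those whose P lay in the window. The median P was -0.37 over the members and -0.15 over all genes. With TMM scaling the medians were -0.63 and -0.39, and in TPM -0.29 and -0.05. The members' distance from the median of all genes was thus close in size under the 3 scales. P was below 0 in 96 members (82.1%) with TMM scaling and 83 (70.9%) in TPM, against 66.3% and 52.4% of all genes. Of the 82 genes with an A of 3 or more, for which P was not limited, 15 had a P below 0 and the median P was 0.42. agat-1, agat-2 and agat-3 had a P of 0.65, 0.42 and 0.50.

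Across the bands of A, P below 0 was found in 46 of 58, 28 of 35 and 15 of 24 members, with medians of -0.47, -0.41 and -0.14. The Spearman correlation of A and P across the 117 genes was 0.26, with no library shared between the ratios. P was 0.5 or more in 14 members and -0.5 or less in 46. SMED30002992 had 561 CPM in the piwi-1-positive and 727 CPM in the piwi-1-negative library, a ratio of 0.772 (95% exact binomial interval 0.758 to 0.786). SMED30026307 had 5.33 and 5.63 CPM, a ratio of 0.947 (0.772 to 1.16) whose interval includes equal levels.

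The levels of the members in the piwi-1 gates were set beside the agat libraries. The piwi-1-negative library lay within the range of the 4 agat-negative libraries for 66 members (56.4%), below it for 12 (10.3%) and above it for 39 (33.3%). Among all genes of 10 CPM or more these shares were 56.8%, 32.9% and 10.4%. The piwi-1-positive library lay within that range for 76 members (65.0%), below it for 21 (17.9%) and above it for 20 (17.1%). Among all genes these shares were 40.2%, 36.8% and 23.0%. The piwi-1-negative library was below every agat-positive library for 105 members, and the piwi-1-positive library for 110. Among all genes these were 36.5% and 47.2%, with the members' lowest agat-positive value raised by the rule. The rule also kept the members' agat-negative values under that value, which shapes the agat-negative range used above. The members' share of counts, 0.747% in the piwi-1-positive and 0.822% in the piwi-1-negative library, compares with 0.461% to 0.788% in the agat-negative libraries. The same choice bears on these shares, so nothing is read from the differences to all genes or to the agat-negative libraries.

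The members' deposited TPM values, a second quantification of the same libraries, kept the groups apart in 89 of the 117, and in 2.56% of all genes of 10 CPM or more. The members were chosen for this separation in the same libraries, so nothing is read from these counts. By band of A these were 34 of 58, 33 of 35 and 22 of 24 members. TMM-scaled CPM kept the groups apart in 112 members and in 7.83% of all genes. In TPM the values of a library sum to the same total, and 1 gene outside the list, SMED30005838, took 65114 ± 51269 TPM in agat-positive and 2783 ± 2625 in agat-negative cells (SD, n = 4). Its part in the lower count in TPM was not tested.

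Counts per unit of TPM, a relative measure that grows with transcript length and falls where the second quantification adds multimapped reads, had a somewhat lower median over the members than over all genes, with no test. Set to 1 at the median of all genes of 10 CPM or more, the measure had a median of 0.833 over the members, with quartiles of 0.375 and 1.301. It had a median of 0.525 over the 82 genes with an A of 3 or more. The members' values ran from 0.125 to 8.56, and the bands of A had medians of 0.889, 0.685 and 0.580. The rule did not use this measure, and length and multimapping cannot be told apart in it.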

How the data were processed

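The members and lists were chosen with earlier results of these data known. Gene counts and TPM values of the same 10 libraries were deposited as 2 tables, and STAR 2.7.10b and RSEM 1.3.1 appear in the submitters' processing notes. The deposited counts have the row layout of STAR output, and the deposited TPM values are taken to be RSEM's from the table's name. The genome build, the gene models and the strandedness of counting are not stated. Libraries were amplified with SMART-seq v4 and Nextera XT, per the labels' protocols, without molecular identifiers. In the TPM table each of the 36035 names is the ID itself. The 4 rows that name no gene held 22.8% to 36.98% of reads and were left out.

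CPM was computed from the deposited counts over the column sum, with a pseudocount of 1 for log2 ratios. The agat gates, with 4 libraries each, were tested in edgeR 4.0.16 under R 4.3.3 (quasi-likelihood test, two-sided, TMM, filterByExpr, robust dispersion, no replicate block), adjusted over 22954 genes. DESeq2 1.42.0 and limma 3.58.1 were alternatives. Scripts were tested on simulated counts. Intervals of the piwi-1 ratios are 95% exact binomial (Clopper-Pearson) and cover counting error only. The labels call the libraries biological replicates. Whether each had its own dissociation is not stated, so p-values measure the spread between these libraries. Libraries of 1 gate differed by more than counting noise: the chi-square averaged 10.7 a gene for agat-positive replicates 2 and 3, and 37.3 to 268 for the other pairs. This does not show whether libraries are separate samples, since amplification without molecular identifiers adds to such differences.

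The rule for named genes gave the 4 probe targets, the member with the highest mean CPM and the member with the largest ratio of lowest positive to highest negative CPM + 1, because the IDs have no names. All other IDs were picked for naming once their values were known. The other settings tried were other scalings, TPM, a pseudocount of 0.1, other minimum levels, the replicate block, each library left out and, after seeing the data, the list without its most abundant member.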

Additional observations from a re-analysis of the deposited data

Results flagged for a closer look

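In 30 groups of 4 libraries, each checked for 1 library far from the rest, 1 value stood out. SMED30034279 had 309 CPM in agat-positive replicate 1, against 876 to 938 CPM in the other agat-positive libraries. Chance gives about 1 such value in 20 groups, and the 30 groups hold related measures of the same libraries. SMED30034279 was named because its order of positive libraries departed from that of most members, and this low value is part of that departure. The chance rate therefore does not apply to it. In agat-positive replicate 1, piwi-1 was also at its lowest of the 4, at 179.8 CPM, and agat-1 at its highest, at 1627 CPM. The part of these levels in the value was not tested.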

How the results depend on the processing

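The number of members was 134 with TMM-scaled CPM (90 of them among the 117), 90 in TPM (74), 112 with a pseudocount of 0.1 (108), 145 and 90 at a minimum of 5 and 20 CPM, and 232 with no minimum. Leaving out 1 library at a time gave 110 to 153 genes, of which 95 to 116 were among the 117. By edgeR, 0 members and 2 genes were called higher and 0 lower. DESeq2 called 109 members and 403 genes higher and 78 genes lower. For all genes on the higher side, edgeR called 1 with library size only, limma on log2(TPM + 1) called 0, and edgeR with each library left out called 0 to 98. Members called higher with a library left out numbered 0 to 39, with 39 only without agat-positive replicate 3. The replicate block gave 0 genes and 0 members higher. At an unadjusted p under 0.05, edgeR with this block had 114 members and 948 of 22954 genes higher. The rule chose the members on these libraries, so nothing is read from the counts of members. The labels do not say that same-numbered libraries are paired, and their deviations correlated at -0.0244 to 0.00652, and other pairs at -0.0409 to 0.0409. The members' share of TPM in agat-negative cells was 0.881%, against 0.646% of counts. The median P was -0.63 with TMM scaling, against -0.37. The median A ranged from 1.21 to 1.71 with a library left out. Causes were not tested. The median ratios of the left-out pairs were 2.65, 0.32, 0.22 and 2.22 with TMM scaling. The median count of a member in an agat-negative library was 792.5 and the lowest 12, so counting error differs widely between members. The error from sampling molecules was not measured, and the piwi-1 gates, with 1 library each, give no spread between libraries.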
